A study of Mus musculus with 6 samples.

Results

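Gene expression after 2 days of neural conversion was compared with that of the starting epiblast stem cells (EpiSCs). EpiSCs are pluripotent cells of the mouse epiblast, the layer of the implanted embryo that gives rise to all 3 germ layers. The comparison was made from 4 of the 6 arrays of the study, chosen by their group labels: 2 arrays of the group NPC2 and 2 of the group EpiSC. The EpiSC group was kept in the epiblastic condition, and the NPC2 group consisted of the same cells after 2 days in a neural plate condition. All cultures were of strain 129/Sv, and the labels name no transgene, deletion or other agent. The sources used here do not give the composition of either medium. In each group the cultures A and B descended from a single seed culture, so the p-values reflect the spread between sister cultures, which may be technical. Another group of 2 arrays, NPC1, had spent 1 day in the neural plate condition. It entered the estimate of the spread, and its levels are given only where stated.

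Epiblast cells stay pluripotent under Nodal and FGF signals, and they can turn into neural plate when Nodal and BMP signals are low. The transcription factors Pou5f1 and Nanog mark the pluripotent state, and Sox1 is an early marker of the neural plate. The neural plate is then divided along its length by Otx2, Gbx2, Wnt1, engrailed and Iroquois genes into forebrain, midbrain and hindbrain. Its cells keep an epithelial order while N-cadherin (Cdh2) takes the place of E-cadherin (Cdh1). In cultures measured in bulk, fewer cells of a type and less RNA per cell cannot be told apart.

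A level below is a scaled intensity, the brightness of a gene's probe after the 75th percentile of every array was set to 1 common value. Levels can be set side by side between arrays for 1 gene but not between genes. An error after ± is the standard error of a log2 change (n = 2 arrays per group), and adjusted p-values are those of limma with Benjamini-Hochberg adjustment over all 14773 genes tested. "At least N-fold" is used for a single gene where neither array of a group was well above background. It is the mean of the bright group over the lowest signal that counted as well above background in the dim group, or over the gene's own signal where that was higher. Counts of genes changed at least 2-fold go by fitted values instead, also for genes that have only a bound.

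Most genes that could be measured differed between the groups. At an adjusted p of 0.05, 10195 genes differed (69%), with 4182 higher (28.3%) and 6013 lower (40.7%) in NPC2. A change of at least 2-fold was found for 2942 of them, of which 1431 were higher (9.69%) and 1511 lower (10.2%). The split of smaller changes depended on the scaling: lower genes made up 59.0% of the calls here but 38.8% in the authors' value table, where the median log2 change of all genes was 0.125 instead of -0.098. Among genes changed at least 2-fold the lower share was 51.4%, and 38.5% in that table. Large fitted changes leaned to the higher side. As fitted, 101 rises and 88 falls reached 16-fold, 46 rises and 22 falls 32-fold, and 16 rises and 7 falls 64-fold. These counts include genes dim in 1 group, for which only a bound is known. Whether the lean holds with bounds was not tested. In all 10195 called genes both NPC2 arrays lay on 1 side of both EpiSC arrays, as they did in 12846 of all 14773 genes.

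**Figure D1:**
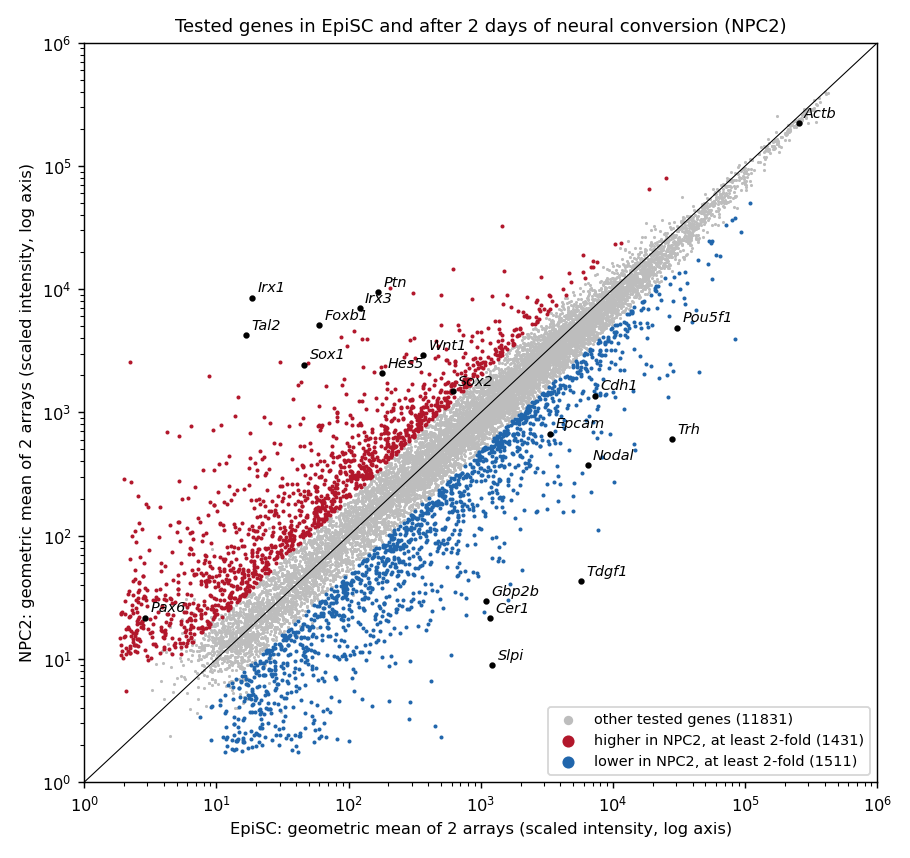
Level of each of the 14773 tested genes in EpiSC (horizontal, geometric mean of 2 arrays) and in NPC2 (vertical), both as scaled intensity on log axes, with genes changed at least 2-fold and past the test in colour and 20 genes named. The 1431 higher genes lie above the diagonal and the 1511 lower genes below it, with Irx1 and Tal2 far above and Tdgf1 and Slpi far below.

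Duplicate cultures lay close together. The median fold between duplicates was 1.04 in EpiSC and 1.05 in NPC2, and 31 of 14065 and 30 of 14204 genes well above background in the group differed more than 2-fold between its duplicates. Array values correlated across genes, which are not independent replicates, at r = 0.9976 (EpiSC) and 0.9973 (NPC2) within groups and at 0.942 to 0.943 between them. The median standard error of a log2 change was 0.0678, and the smallest change that passed was 0.124. The difference NPC2 A minus EpiSC A and the difference NPC2 B minus EpiSC B rest on separate arrays, and over 13628 genes well above background on all 4 they correlated at r = 0.9702.

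**Figure D2:**
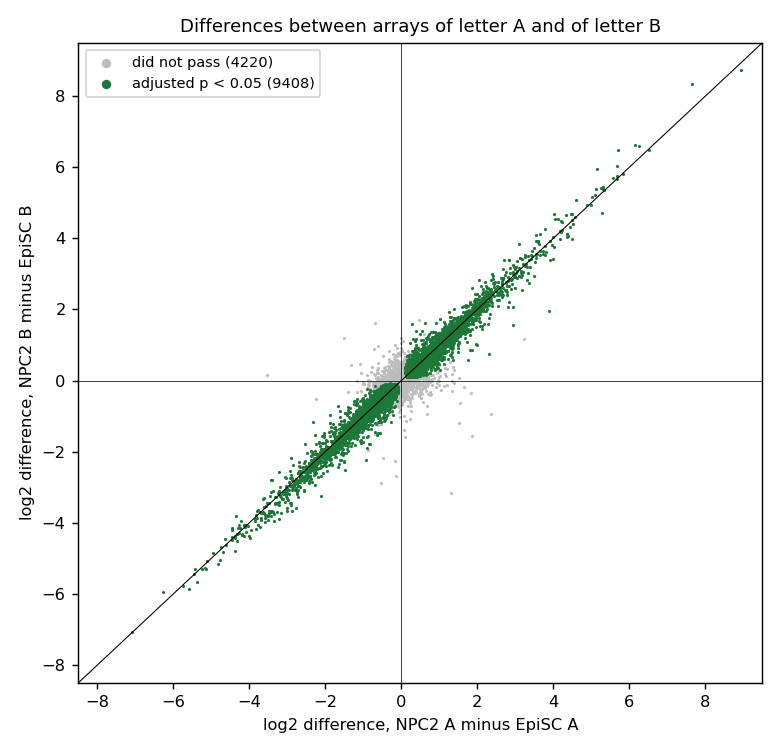
Log2 difference NPC2 A minus EpiSC A (horizontal) against NPC2 B minus EpiSC B (vertical) for the 13628 genes well above background on all 4 arrays, in green where the adjusted p was under 0.05. Green points lie along the diagonal in the upper right and lower left, and grey points gather near 0.

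The labels were checked against markers. In EpiSC all 6 epiblast markers looked at (Pou5f1, Nanog, Fgf5, Otx2, Utf1 and Dnmt3b) were well above background on both arrays. After 2 days 4 of them had fallen and 2, Nanog and Otx2, had risen. Of 6 neural plate markers (Sox1, Sox2, Zic1, Zic2, Ncam1 and Hes5) all 6 rose. Nanog and Otx2 thus ran against the other epiblast markers. Each was read by 1 probe that passed the filter, as were Pou5f1, Fgf5 and Utf1, so no second probe could be compared.

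The core of the epiblast programme fell in part. Of 18 epiblast and core pluripotency genes 10 fell at least 2-fold, 6 rose and the other 2 did not pass, with a median log2 change of -1.34 against -0.098 for all genes. Pou5f1, which encodes the pluripotency factor Oct4, stood at 29041 and 32410 in EpiSC and 4899 and 4809.6 in NPC2. It fell 6.32-fold (log2 change -2.66 ± 0.073, adjusted p = 1.6e-05) and was still well above background. Utf1, a chromatin-bound factor of pluripotent cells, read 44995 and 44390 in EpiSC and 2182 and 2044 in NPC2, a fall of 21.2-fold. L1td1, which encodes an RNA-binding protein made from a retrotransposon-derived gene, fell 21.1-fold, and Foxd3, a forkhead repressor of pluripotent and neural crest cells, fell 17.1-fold. Fgf5, the growth factor gene that marks the epiblast, went from 8316 and 8294 to 474 and 398 (19.1-fold lower).

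Other members of the same list moved up. Nanog stood at 127 and 136 in EpiSC and 229 and 233 in NPC2, so that both NPC2 arrays were above both EpiSC arrays, a rise of 1.76-fold (log2 change 0.82 ± 0.053, adjusted p = 0.000166). Otx2, needed in both epiblast and anterior neural tissue, rose 1.71-fold, and Sox2, shared by pluripotent and neural cells, rose 2.44-fold from 599.8 and 622 to 1446 and 1529. Smaller rises were seen for Lin28a (0.63), Sall4 (0.42) and Lin28b (0.36), which complete the 6 and were named after their values were seen. Pou3f1, a POU factor of epiblast and early neural plate, fell 4.38-fold from 13912 and 14698 to 3086 and 3447.

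Genes of naive pluripotency, the state that precedes the epiblast, were lower almost throughout. Of 15 tested members 12 fell, 10 of them at least 2-fold, and 1 rose (median log2 change -2.19, or -1.90 with dim genes at their bounds). Tdh, the threonine dehydrogenase gene, fell 40.97-fold, from 1648 and 1649 to 38.4 and 42.2. Klf5, a Krüppel-like factor gene, fell 7.84-fold, and Dppa5a fell 6.53-fold. Dppa2, a gene of pluripotent cells, was well above background in EpiSC and on neither NPC2 array, a fall of at least 7.76-fold. Tbx3, a T-box gene that also has later roles in the embryo, was the member that rose (at least 3.74-fold).

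**Figure D3:**
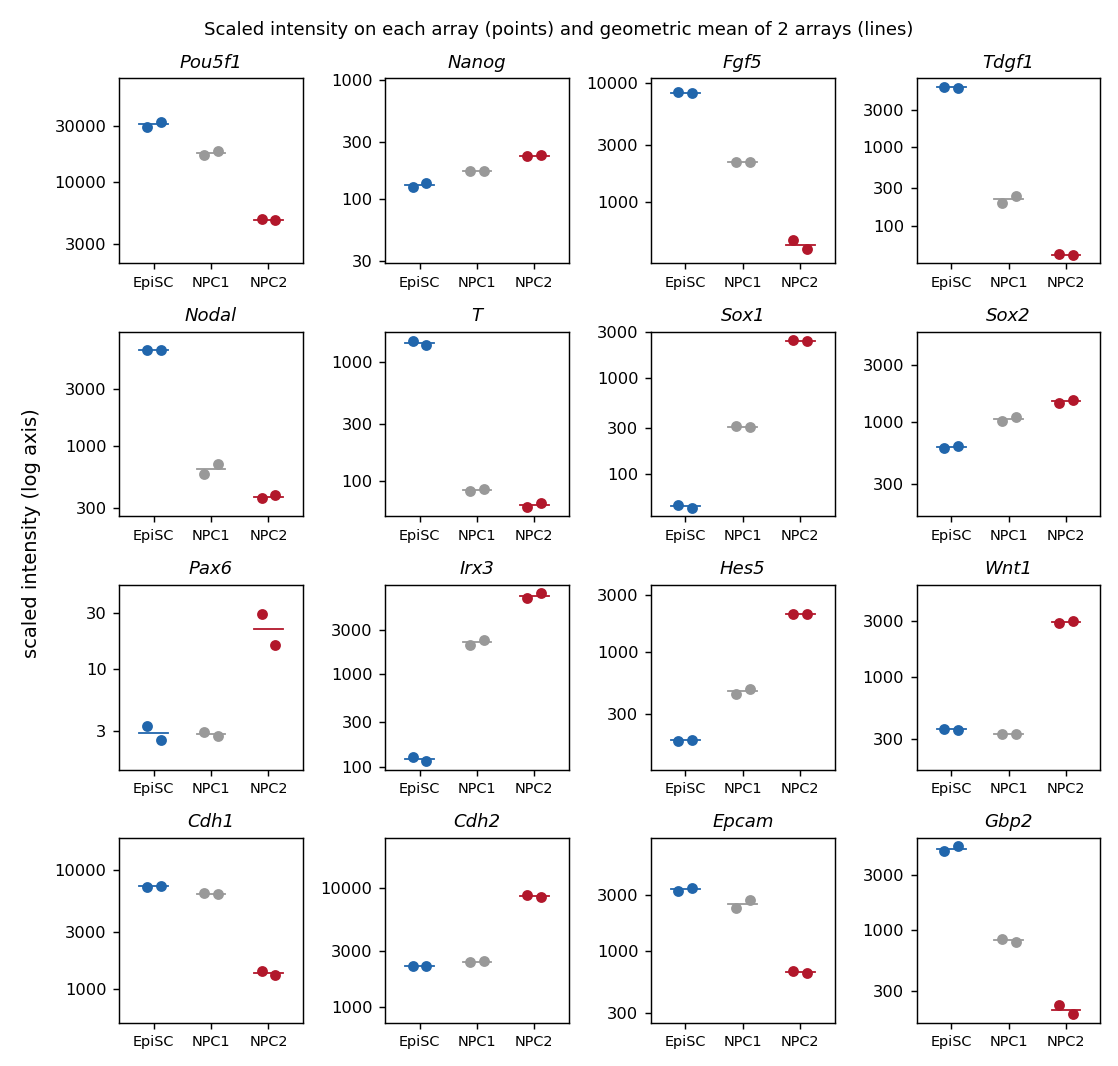
Scaled intensity (log axis, range set per gene) of 16 genes on each of the 6 arrays, with points for the 2 arrays of a group and a line for their geometric mean. Pou5f1, Fgf5, Tdgf1, Nodal, T, Cdh1, Epcam and Gbp2 are lower in NPC2 than in EpiSC, and Nanog, Sox1, Sox2, Pax6, Irx3, Hes5, Wnt1 and Cdh2 are higher, with no overlap between those groups in any panel.

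Nodal is a TGF-beta family ligand that acts with the co-receptor Cripto, encoded by Tdgf1, and switches on its own inhibitors Lefty and Cerberus. The ligand, the co-receptor and the inhibitors fell together. Nodal read 6442 and 6386 in EpiSC and 364 and 385 in NPC2, a fall of 17.1-fold (log2 change -4.10 ± 0.10, adjusted p = 1.4e-05). Tdgf1 went from 5842 and 5649 to 43.1 and 42.3, the largest fall of any gene well above background on all 4 arrays (135-fold, log2 change -7.07 ± 0.11). Of its 3 probes the other two gave log2 changes of -7.08 and -1.36. Cer1, which encodes Cerberus, fell 54.3-fold and Lefty1 18.01-fold. Smad7, an inhibitory Smad induced by the pathway, fell 13.7-fold. Among signal-transducing members, Smad3 rose 1.93-fold, the receptor gene Acvr2b 1.57-fold and Ltbp1, a TGF-beta binding protein gene, 1.62-fold. In all, 11 of 16 Nodal genes fell, 7 of them at least 2-fold, and 3 rose, none by 2-fold (median -0.715).

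The primitive streak is the region of the epiblast where mesoderm and endoderm arise, and some of its genes are active in EpiSCs. Of 19 tested streak and mesoderm genes 9 fell, all at least 2-fold, and 6 rose (median -0.43). T (brachyury), the T-box factor of the streak, stood at 1509 and 1410.2 in EpiSC and 60.5 and 64.7 in NPC2 and fell 23.3-fold (adjusted p = 5.96e-06). Eomes, another T-box gene, fell 17.02-fold, and Gsc, a homeobox gene of the anterior streak, fell 9.78-fold. Fgf8, a growth factor gene of both the streak and the midbrain-hindbrain border, fell 4.05-fold, from 2439.7 and 2423 to 559 and 644; NPC1 levels were lower still at 129 and 192. The members with the largest rises, Sp8 (40.4-fold) and Sp5 (9.71-fold), are zinc finger genes that neural tissue also expresses. The second Sp8 probe rose by 0.80 instead of 5.33.

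Endoderm markers, a list that holds genes of both definitive and extraembryonic endoderm, moved both ways. Of 10 tested genes 6 fell and 4 rose (median -1.28). Trh, which encodes thyrotropin-releasing hormone, had been among the brighter probes at 26582 and 29022 and fell to 637 and 577 (45.8-fold). Foxa2, a forkhead factor of endoderm and floor plate, fell 3.67-fold, with levels of 2091 and 1989 in EpiSC and 522 and 590.2 in NPC2 and of 106 and 135 in NPC1. Sox17 fell 7.36-fold, with 1 NPC2 array well above background. Rises were seen for Cxcr4, a chemokine receptor gene also used by neural precursors (16.9-fold), for Pdgfra (at least 11.5-fold), for Dab2 (2.18-fold) and for Hhex, whose small rise (0.24) did not pass without EpiSC A (adjusted p = 0.0546), without NPC2 A (0.0543) or without EpiSC B (0.0503). Further endoderm markers, among them Gata4, Hnf4a, Ttr, Apoa1 and Sox7, were not tested, because they were not well above background on both arrays of any group.

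Neural plate genes were mostly higher, with exceptions among their most used markers. Of 24 tested members 16 rose, 10 of them at least 2-fold, and 6 fell (median 0.73). Sox1 stood at 48.2 and 44.3 in EpiSC and 2469.5 and 2407 in NPC2, a rise of 52.7-fold (log2 change 5.72 ± 0.059, adjusted p = 5.84e-06). Its dimmer probe gave a log2 change of 1.81, and both averaged gave 3.77. Hes3, a repressor of the Hes family found in early neural progenitors, was not well above background in EpiSC (2.13 and 2.29) and reached 2303 and 2862 in NPC2, at least 274-fold higher, the highest such bound of any gene. Zeb2, a zinc finger repressor of the neural plate and crest, rose 10.4-fold. Ncam1, the neural cell adhesion molecule gene, rose 3.899-fold, and Sox3 rose 1.55-fold. Zic1 had 2 probes that differed: the brighter rose by 0.28 from 506 and 491 to 618 and 592, and the other by 5.69, so no single size can be given. Nes, the nestin gene used as a marker of neural progenitors, fell 4.09-fold from 11081 and 11392 to 2774 and 2717, and Vim, the vimentin gene, fell 2.67-fold (Ncam1 and Vim were named after their values were seen).

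Genes that pattern the brain along its length made up many of the largest changes. Of 14 tested forebrain and eye field genes 13 rose, all at least 2-fold in fitted values, and 0 fell (median 2.92, or 1.94 with 7 dim genes at their bounds). Of 19 tested midbrain and hindbrain genes 16 rose, all at least 2-fold, and 3 fell (median 3.0). Genes that passed the filter only through NPC2 were selected as brighter there, so these counts describe the lists and support nothing further. Irx1, an Iroquois homeobox gene, went from 16.6 and 20.8 to 8169 and 8862, 458-fold higher, the largest rise of any gene well above background on all 4 arrays (log2 change 8.84 ± 0.15, adjusted p = 7.16e-06). Irx5 rose 68.1-fold and Irx3 57.6-fold, from 128 and 114 to 6573 and 7400.1. Dmbx1, a homeobox gene of the midbrain, was well above background on 1 EpiSC array and rose 226-fold, to 1846 and 2118.

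Regional markers of different levels of the brain rose side by side. Hesx1, a repressor needed for the forebrain, stood at 39.9 and 45.6 in EpiSC and 901 and 726 in NPC2 (18.96-fold), and Lhx5, a LIM homeobox gene of the forebrain, rose at least 73.3-fold. The eye and forebrain factors Six3 and Pax6 rose at least 3.25-fold and at least 2.31-fold, with NPC2 levels of 34.4 and 26.98 and 29.1 and 16.1 that remained close to background. Lmx1a, a roof plate and midbrain gene, rose at least 35.3-fold. Midbrain-hindbrain border genes named after their values were seen also moved: Wnt1, which encodes the ligand of the caudal midbrain, went from 369.9 and 361 to 2838 and 2999 (7.98-fold), En2 from 46.6 and 44.1 to 807 and 1021 (20.02-fold), and Gbx2, a gene of the anterior hindbrain, from 22.5 and 17.3 to 367 and 405 (19.6-fold). Those that fell included Egr2 (5.33-fold, above background on 1 NPC2 array) and Fgf8, which are also active elsewhere in the early embryo. Among others, Six6, Fezf1, Emx2, Nr2e1 and Vax1 of the forebrain and Hoxb1, Hoxa2 and Hoxb2 of the hindbrain were not tested, for want of signal above background.

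Posterior genes gave few signals. Of 23 spinal cord and posterior axis genes 10 could be tested, of which 4 rose and 3 fell (median 0.12, which changed sign without a filter on dim probes, to -0.027, and without EpiSC A, to -0.160). Most Hox genes of the list, Cdx2, Cdx4 and Olig2 were among the 13 not tested. Nkx6-1, a homeobox gene of the ventral neural tube, rose 40.3-fold from 43.5 and 44.4 to 1655 and 1893, and Nkx1-2, a gene of the caudal neural plate, rose 20.3-fold. The other Nkx1-2 probe gave a log2 change of 1.49 against 4.34, and both averaged gave 2.91. T, Wnt8a (5.6-fold) and Hoxb9 fell; the fall of Hoxb9 (log2 change -1.20 ± 0.28) did not pass without EpiSC B (adjusted p = 0.0688).

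Genes of the neural plate border, neural crest and surface ectoderm moved both ways. Pax3 and Pax7, paired-box genes of the dorsal neural tube and crest, rose 36.5-fold and at least 13.9-fold; Pax3 read 11.7 and 9.47 in EpiSC and 389 and 379 in NPC2 and was above background on 1 EpiSC array. Msx1, a homeobox gene induced by BMP, went from 43.7 and 47.5 to 507 and 562 (11.7-fold), and Sox9, a crest and glial factor gene, from 38.7 and 37.3 to 1249 and 1328 (33.9-fold). Foxd3, a crest gene given above, fell 17.1-fold. Other falls were those of Krt19 (9.48-fold) and, named after its values were seen, Grhl2, a grainyhead factor of surface epithelia (5.601-fold). Over the list 8 of 22 rose and 11 fell (median -0.14, and 0.079 in the authors' value table).

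Proneural and neuronal genes were more often higher than lower. Of 23 tested members 13 rose and 6 fell (median 0.55). Neurog2, a proneural bHLH gene, was well above background in NPC2 but not in EpiSC (37.2 and 30.2, at least 3.58-fold higher). Rbfox3, which encodes the neuronal splicing factor NeuN, rose 11.1-fold, Stmn3 5.62-fold and Tubb3, the neuronal beta-tubulin gene, 2.82-fold; for Tubb3 the NPC1 arrays were highest at 3761 and 3300.5. Nefl, the light neurofilament gene, fell 11.6-fold from 21668 and 22598 to 2058 and 1764. The list thus held large changes in both directions.

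Notch signalling holds neural progenitors back from differentiation: Delta and Jagged ligands on 1 cell activate Notch receptors on the next, and the receptor fragment acts with RBPJ on Hes genes. Most of its genes that passed were higher, with ligand, Fringe and Hes genes on both sides. Dll1, a Delta ligand gene, was not well above background in EpiSC and stood at 251 and 247 in NPC2 (at least 26.6-fold). Lfng, a Fringe glycosyltransferase gene, rose 4.23-fold, from 50.2 and 52.1 to 217 and 215. Hes5 read 178 and 181 in EpiSC and 2061 and 2081 in NPC2, a rise of 11.5-fold (log2 change 3.53 ± 0.062, adjusted p = 8.35e-06). Jag2, a Jagged ligand gene (2.096-fold), Rfng, another Fringe gene (1.47-fold), and Hes6 (1.83-fold) fell and were named after their values were seen. In all 12 of 20 tested Notch genes rose, 7 of them at least 2-fold, and 6 fell, 1 of them at least 2-fold (median 0.43). The Hes5 promoter is shown because it is a textbook target of RBPJ; capitals mark the letters GTGGGAA, or TTCCCAC on the other strand. It lies at chr4:154960673-154960972 (plus strand) of GRCm38.p6, from 250 bases before to 50 after the RefSeq start, and is written 5′ to 3′ along the gene.
Hes5: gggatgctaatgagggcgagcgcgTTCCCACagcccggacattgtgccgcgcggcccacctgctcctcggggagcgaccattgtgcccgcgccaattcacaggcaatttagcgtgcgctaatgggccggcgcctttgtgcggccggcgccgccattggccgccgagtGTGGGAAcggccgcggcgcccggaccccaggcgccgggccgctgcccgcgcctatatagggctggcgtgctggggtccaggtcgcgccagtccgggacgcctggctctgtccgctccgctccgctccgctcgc
These letters occurred 2 times in it, and in 6.38% of the 32851 RefSeq promoters of that length. Of 15 tested Notch genes with a known promoter these letters were in those of Hes5 and Lfng, 2 genes that rose. Of the other 13 genes 5 rose and 6 fell. The share is per promoter, while a gene was counted if any of its promoters held the letters.

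BMP genes moved mainly upward. BMPs are ligands of dorsal neural tissue and epidermis that act through Id genes. Of 17 tested genes 10 rose, 8 of them at least 2-fold, and 3 fell at least 2-fold (median 0.65). Id3, an inhibitor of bHLH factors, went from 489 and 504 to 8921 and 9178 (18.2-fold), and Id1 from 158 and 166 to 1349.5 and 1269 (8.08-fold). The ligand genes Bmp7 (6.22-fold) and Bmp4 (2.78-fold), named after their values were seen, rose, and Bmp2 fell 3.62-fold. Fst, which encodes the activin inhibitor follistatin, fell 2.97-fold, and Smad7 fell as given above. Id2 (1602 and 1653 in EpiSC and 1784 and 1709 in NPC2, adjusted p = 0.131) did not pass.

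Wnt targets and regulators were more often higher than lower. Nkd1, an inhibitor of Dishevelled, stood at 153 and 123 in EpiSC and 3716 and 4162 in NPC2 (28.7-fold), Axin2, a direct target and inhibitor of the pathway, at 22.3 and 20.4 in EpiSC and 136 and 152 in NPC2 (6.73-fold), and Sp5, another target, at 870.1 and 853 in EpiSC and 7547 and 9274 in NPC2 (9.71-fold). For Axin2 and Sp5 the NPC1 arrays had been below both groups, at 13.3 and 13.8 and 140.0 and 241. T, also a Wnt target, fell. Other members, named after their values were seen, differed from these: Lgr5, a receptor and target gene, fell 4.93-fold, Nkd2 rose 1.18-fold, and Notum, a feedback inhibitor gene, did not pass (log2 change 0.07 ± 0.051). Of 24 tested Wnt genes 13 rose and 6 fell, 9 and 3 of them at least 2-fold (median 0.26).

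Most genes of FGF ligands and ERK kinase targets fell, and FGF receptor genes rose. Of 24 tested genes 18 fell, 15 of them at least 2-fold, and 4 rose (median -1.85). Fgf4, a ligand gene of pluripotent cells, went from 6801 and 6820 to 248 and 208 (30-fold, adjusted p = 1.01e-05). Etv4 and Etv5, ETS factor genes switched on by FGF, fell 29.8-fold and 11.04-fold, and Dusp6, an ERK phosphatase gene named after its values were seen, fell 8.28-fold. The members that rose were the receptor genes Fgfr3 (8.49-fold), Fgfr2 (4.67-fold) and Fgfr1 (1.89-fold) and the ligand gene Fgf15 (2.28-fold), a hindbrain and diencephalon gene whose levels were 342 and 346 in EpiSC and 741 and 832 in NPC2. The means of all probes gave log2 changes of 2.23 for Fgfr3 and 3.08 for Fgfr2, against 3.08 and 2.22 for the brightest.

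Hedgehog genes were mostly higher. Boc, a co-receptor gene, rose 5.45-fold, Gli2, a transcription factor gene, 4.198-fold and Ptch1, receptor and target, 2.49-fold, from 76.6 and 77.4 to 197 and 186. Of 13 tested members 8 rose and 1 fell (median 0.63), and Shh itself was not tested. In the retinoid list 6 rose and 6 fell of 14 (median -0.14, and 0.083 in the authors' value table or 0.116 without EpiSC B). Crabp2, which encodes a retinoic acid binding protein, went from 1432 and 1454 to 31945 and 33099 (22.5-fold), Crabp1 rose 5.41-fold, and Stra6, the gene of a retinol uptake receptor, at least 14.8-fold. Aldh1a3, a retinoic acid synthesis gene, was well above background on 1 NPC2 array, and its call ended under several settings, for example without EpiSC A (adjusted p = 0.0954); without NPC2 A its log2 change was -0.94 in place of -1.71, and without NPC2 B -2.47.

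The E-cadherin gene fell and the N-cadherin gene rose. Cdh1 stood at 7202 and 7438 in EpiSC and 1417 and 1307 in NPC2, a fall of 5.38-fold (log2 change -2.43 ± 0.058, adjusted p = 1.27e-05), and Cdh2 at 2242 and 2216 in EpiSC and 8889.9 and 8419 in NPC2, a rise of 3.88-fold (log2 change 1.96 ± 0.050, adjusted p = 1.4e-05). In NPC1 Cdh1 stood at 6399 and 6286 and Cdh2 at 2384 and 2448. Of 16 tested cadherins and protocadherins 9 rose and 4 fell (median 0.72). Pcdh19, a protocadherin gene of the neural plate, rose 15.1-fold, Pcdh18 12.5-fold and Cdh13 6.74-fold, and Cdh20 rose at least 7.87-fold from levels near background. Cdh3, the P-cadherin gene, fell 3.07-fold and Pcdh1 1.68-fold. Pcdh7 fell by less (log2 change -0.66 ± 0.10), and the mean of its probes did not pass (adjusted p = 0.0558). Cdh11 differed between the EpiSC duplicates (31.9 and 215), far more than most genes, and gave no call.

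Genes of tight junctions, desmosomes and simple epithelial keratins fell along with Cdh1. Of 24 tested members 21 fell, 17 of them at least 2-fold, and 1 rose (median -1.74). Cldn6, a claudin of embryonic epithelia, went from 2088 and 2162 to 175 and 147 (13.3-fold), Cldn4 fell 9.24-fold, and Krt19 fell from 13518 and 14709 to 1606 and 1379. Esrp2, which encodes an epithelial splicing regulator, fell 10.3-fold. Epcam, the gene of an epithelial adhesion molecule, and Cldn7 (both named after their values were seen) stood at 3251 and 3398 in EpiSC and 678 and 664 in NPC2 and at 17363 and 17966 in EpiSC and 2650.3 and 2286 in NPC2. The member that rose, Cldn3, did so by 0.38 and lost its call without EpiSC A (adjusted p = 0.105) or EpiSC B (0.101). Among repressors that bind E-boxes in epithelial genes, Zeb2 rose as given above, and Snai1, named after its values were seen, rose 2.77-fold. Other such repressors are not reported here, and a part of any of them in these falls was not tested.

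Promoters of Epcam and Cldn7 are shown for the letters CAGGTG, or CACCTG on the other strand, the E-box that Zeb and Snail repressors bind, in capitals. Both run 5′ to 3′ along the gene from 250 bases before to 50 after the RefSeq start, at chr17:87635729-87636028 (plus strand) and chr11:69965171-69965470 (plus strand) of GRCm38.p6.
Epcam: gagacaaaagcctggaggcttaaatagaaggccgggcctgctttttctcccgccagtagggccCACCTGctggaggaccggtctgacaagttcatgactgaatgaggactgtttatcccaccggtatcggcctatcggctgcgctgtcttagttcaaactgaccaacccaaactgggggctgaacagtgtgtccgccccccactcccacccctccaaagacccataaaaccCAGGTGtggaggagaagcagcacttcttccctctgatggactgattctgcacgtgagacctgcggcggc
Cldn7: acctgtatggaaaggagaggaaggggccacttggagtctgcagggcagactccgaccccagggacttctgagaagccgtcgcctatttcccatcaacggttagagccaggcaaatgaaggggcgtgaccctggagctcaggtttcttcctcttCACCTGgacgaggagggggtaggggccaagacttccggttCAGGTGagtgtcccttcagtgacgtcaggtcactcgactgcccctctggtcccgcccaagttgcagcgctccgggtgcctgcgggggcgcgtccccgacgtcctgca
Each holds the letters 2 times, once on either strand. They occurred in 20.2% of the 32851 promoters and in 11 of the 14 tested members of the list that have a promoter in the table, 9 of which fell and 1 of which rose. The 3 members without them fell too. The share is per promoter, while a member was counted if any of its promoters held the letters, so share and count are not directly comparable. A match describes letters and no binding was measured.

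Most matrix and integrin genes fell, the majority by less than 2-fold. Of 24 tested 18 fell, 5 of them at least 2-fold, and 5 rose (median -0.55). Itga3 and Itga1, genes of laminin- and collagen-binding integrin chains, fell 7.46-fold and 9.08-fold, and Tnc, the tenascin C gene, at least 4.02-fold. Lama1, a laminin gene of the early basement membrane, moved the other way, from 297 and 335 to 2722 and 2770.3 (8.699-fold). The collagen IV genes Col4a2 (1.72-fold) and Col4a1 (1.44-fold) rose too. The remaining rises, of Itgb5 (0.20) and Col18a1 (0.21), lost their calls when single arrays were left out (adjusted p from 0.0546 to 0.113 where lost).

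Axon guidance genes, many of which are used in tissue patterning before axons grow, changed widely. Of 27 tested 15 rose, 12 of them at least 2-fold, and 7 fell (median 0.77). Ephb1, an ephrin receptor gene, stood at 20.4 and 32.02 in EpiSC and 791 and 846 in NPC2 (31.99-fold), Efnb1, an ephrin gene, at 303 and 311 in EpiSC and 8932 and 9523 in NPC2 (30.04-fold), and Ntn1, the netrin 1 gene, at 93.2 and 90.6 in EpiSC and 1739 and 2008 in NPC2 (20.3-fold). Epha2, an ephrin receptor gene of epithelia and early embryos, fell from 9854 and 10439 to 279 and 265 (37.3-fold). For Efnb1, NPC1 arrays read 333 and 347.

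Smooth and striated muscle actin genes rose. Actc1, the cardiac actin gene, stood at 86.7 and 105 in EpiSC and 1397 and 1414 in NPC2 (14.7-fold), with higher NPC1 levels of 3998 and 4224. Acta2 rose 6.01-fold and Acta1 4.18-fold, and Cnn2, a calponin gene, fell 2.58-fold. Of 16 tested genes 6 rose and 9 fell (median -0.17, which became 0.052 in the authors' value table and 0.021 with quantile normalization). Actb (log2 change -0.20 ± 0.052) passed here but not without EpiSC A, EpiSC B or NPC2 A (adjusted p 0.0846 to 0.0966), and it turned to 0.023 in the value table.

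**Figure D4:**
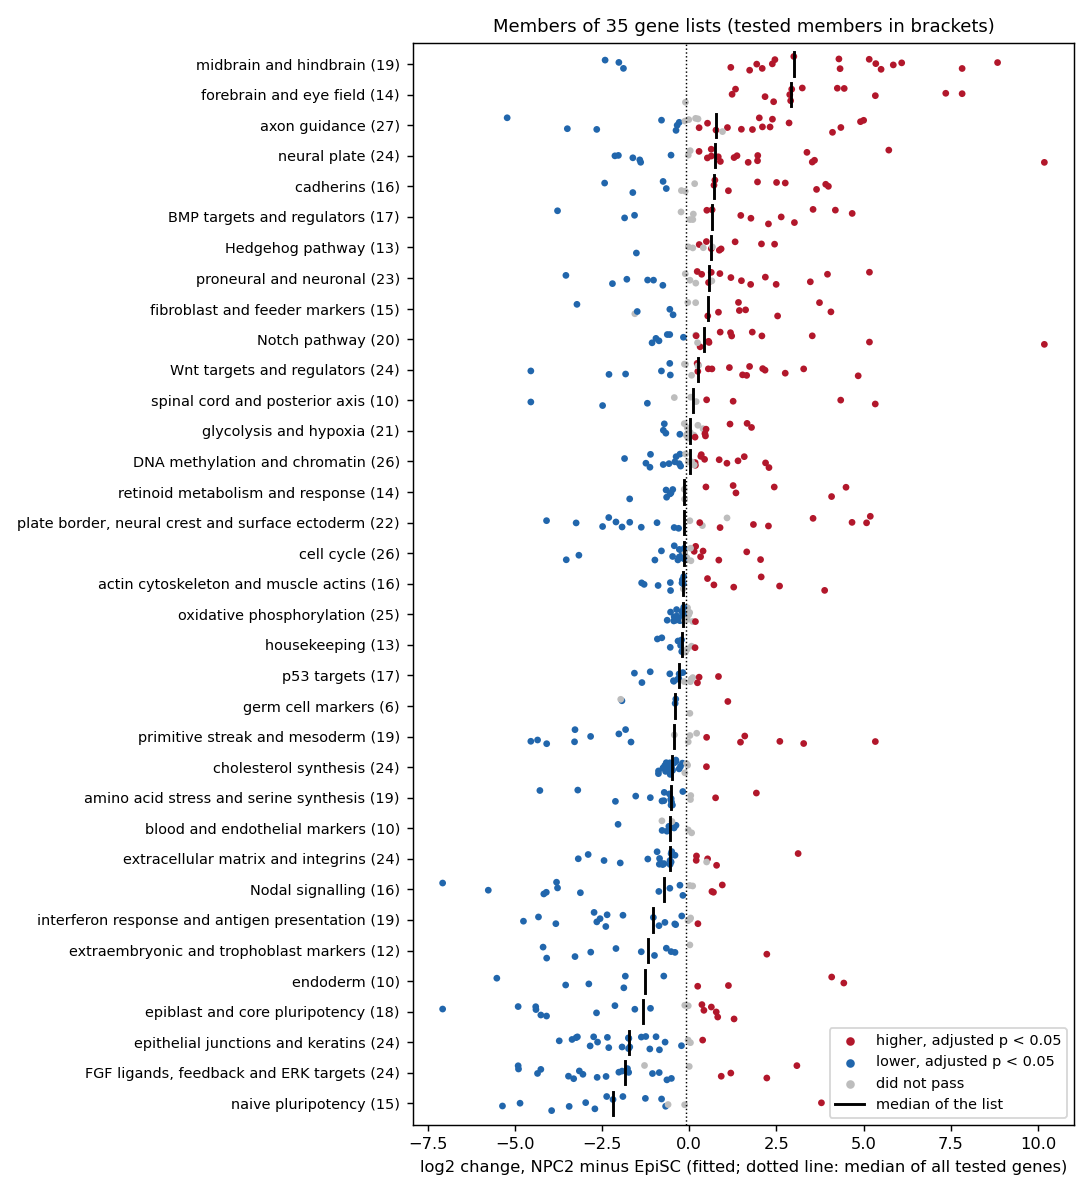
Log2 change, NPC2 minus EpiSC, of each tested member of 35 gene lists (points, red where higher and blue where lower past the test, grey otherwise), with the median of each list as a black bar and the median of all genes as a dotted line. Lists are ordered by their medians, from naive pluripotency (-2.19) at the bottom to midbrain and hindbrain (3.0) at the top, and many hold members on both sides of 0.

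Genes of the interferon response and antigen presentation fell. Interferons induce the immunoproteasome subunits and peptide transporters that load class I molecules, through IRF and STAT factors. Of 19 tested members 15 fell, 10 of them at least 2-fold, and 1 rose (median -1.03). Psmb8, an immunoproteasome subunit gene, stood at 4204 and 4221 in EpiSC and 162 and 150.4 in NPC2 (27-fold, adjusted p = 5.84e-06). Isg15, a ubiquitin-like protein gene, went from 3811 and 3820.4 to 189 and 192 (20.03-fold), Irf1, an interferon regulatory factor gene, fell 14.2-fold, and Psmb10 fell 6.28-fold. The class I genes themselves moved little: H2-K1 changed by -0.39, and B2m (3564 and 3699 in EpiSC and 3823 and 3632 in NPC2, adjusted p = 0.535) did not pass. Ifitm2 rose by 0.25, a call lost without any 1 of the 4 arrays (adjusted p 0.0578 to 0.0683). Guanylate-binding protein genes, induced by interferon gamma, also fell. Gbp2b fell 37.4-fold, from 1126 and 1066 to 31.2 and 27.5, Gbp4 at least 33.3-fold, and Gbp2, named after its values were seen, 23.9-fold. Genes of this family share sequence, and the probes may not separate them fully.

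The promoters of Isg15 and Gbp2 are shown for the interferon-stimulated response element, searched on both strands as GAAA, any 2 letters and GAAA again, and given in capitals. They run 5′ to 3′ along the gene, from 250 bases before to 50 after the RefSeq start, at chr4:156200769-156201068 (minus strand) and chr3:142620413-142620712 (plus strand) of GRCm38.p6.
Isg15: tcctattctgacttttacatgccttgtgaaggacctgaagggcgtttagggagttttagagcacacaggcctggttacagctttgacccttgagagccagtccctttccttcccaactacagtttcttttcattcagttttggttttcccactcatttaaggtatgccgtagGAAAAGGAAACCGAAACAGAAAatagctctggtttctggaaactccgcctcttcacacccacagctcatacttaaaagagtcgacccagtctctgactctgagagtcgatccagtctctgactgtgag
Gbp2: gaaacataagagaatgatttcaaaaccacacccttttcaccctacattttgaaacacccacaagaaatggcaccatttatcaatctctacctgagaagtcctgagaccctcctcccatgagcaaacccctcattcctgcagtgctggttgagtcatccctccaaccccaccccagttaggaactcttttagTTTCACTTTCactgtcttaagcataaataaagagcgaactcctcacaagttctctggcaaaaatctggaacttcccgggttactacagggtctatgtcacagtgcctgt
Isg15 holds 3 overlapping matches and Gbp2 holds 1, on the other strand. The letters were found in 3.44% of the 32851 promoters and in 6 of the 16 tested members of the list with a promoter. Of these 6 genes 4 fell and 1 rose, and 8 of the 10 without the letters fell. Here too the share is per promoter, while a member was counted if any of its promoters held the letters.

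Cholesterol synthesis genes fell together: 20 of 24 were lower and 1 higher, none by 2-fold (median -0.50), with Pmvk (1.84-fold), Sc5d (1.85-fold) and Lss (1.63-fold) among the larger falls and Tm7sf2 (1.41-fold) as the rise. Fdft1 fell 1.69-fold, but the mean of its probes did not pass (adjusted p = 0.0574). Amino acid stress and serine synthesis genes fell in 15 of 19 cases and rose in 2 (median -0.53), with 5 falls and 1 rise of at least 2-fold. Slc7a3, a cationic amino acid transporter gene, fell 4.34-fold, Slc7a11, the cystine transporter gene, at least 4.33-fold, and Fgf21, a hormone gene of nutrient stress, at least 8.26-fold. The fitted log2 change of Fgf21 was -4.28 and moved to -3.20 without NPC2 A and to -5.37 without NPC2 B; neither NPC2 array was well above background. Vldlr, a lipoprotein receptor gene, rose 3.79-fold and Ddit4 1.69-fold.

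Glycolysis and hypoxia genes moved both ways. Slc2a1 and Slc2a3, which encode GLUT1 and GLUT3, stood at 25284 and 25420 in EpiSC and 82487 and 77498 in NPC2 (3.15-fold) and at 18655 and 18958 in EpiSC and 66815 and 62820 in NPC2 (3.45-fold), and Bnip3, a hypoxia-induced mitophagy gene, rose 2.25-fold. Hk2, a hexokinase gene, fell 1.68-fold, Pdk1 1.59-fold and Car9 1.64-fold. Eno1 (-0.27) passed here but not in the value table (adjusted p = 0.426) or with normexp (0.106). Of 21 tested members 7 rose and 4 fell (median 0.027, and -0.056 with median scaling). Oxidative phosphorylation genes shifted down slightly, 14 of 25 lower and 1 higher and none by 2-fold, with Cycs, the cytochrome c gene (1.55-fold), Uqcrfs1 (1.45-fold), Uqcrc1 (1.36-fold) and Atp5c1 (1.35-fold) lowest. Their median of -0.18 became 0.042 in the authors' value table and 0.074 with quantile normalization, so the direction rests on the scaling. Sdhc rose by 0.18 and lost its call without any 1 of the 4 arrays (adjusted p 0.0757 to 0.105).

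Cell cycle genes moved in single members. Cdkn2a, the Ink4a/Arf gene, fell 11.5-fold, from 671 and 699 to 65.1 and 54.3 (log2 change -3.53, and -2.78 for the mean of its probes), and Cdk6, a G1 kinase gene, fell 8.97-fold. Ccnd2, the cyclin D2 gene, rose 3.13-fold, and Cdkn2c, an inhibitor gene, at least 2.58-fold. Of 26 tested 7 rose and 14 fell (median -0.15, and 0.075 in the value table or 0.125 with quantile normalization). Mki67, the proliferation marker Ki-67, named after its values were seen, stood at 15772 and 16368 in EpiSC and 19993 and 20232 in NPC2 (log2 change 0.32 ± 0.045). Among p53 targets 10 of 17 fell and 3 rose (median -0.29), with falls of Perp (2.98-fold), Plk2 (2.56-fold) and Mdm2 (2.17-fold) and a rise of Sesn1 (1.79-fold). The rises of Zmat3 (0.23) and Trp53inp1 (0.28) lost their calls without NPC2 A (adjusted p = 0.0568 and 0.0803) and without EpiSC B (0.0644 and 0.0806).

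Chromatin genes moved in both directions. Of 26 tested 11 rose and 11 fell (median 0.022, and -0.061 with median scaling, -0.036 without NPC2 A and -0.048 without EpiSC B). Dnmt3l, a cofactor of the de novo DNA methyltransferases, fell 3.62-fold, and the enzyme gene Dnmt3b, one of the epiblast markers above, fell 2.16-fold from 78549 and 79366 to 35726 and 37339. Smarca2 and Smarcd3, subunit genes of BAF remodelling complexes that are raised in neural cells, rose 4.87-fold and 4.55-fold, and Tet2, a DNA demethylation enzyme gene, rose 2.98-fold. Smarca4, the alternative ATPase gene to Smarca2, did not pass (36271 and 36158 in EpiSC and 35222 and 35830 in NPC2, adjusted p = 0.729).

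The largest rises outside these lists included genes of other kinds. Tal2, a bHLH gene of midbrain neurons, rose 254-fold from 21.2 and 13.1 to 4260.2 and 4234. Foxb1, a forkhead gene of the caudal neural tube, went from 64.7 and 55.1 to 4903 and 5329.9 (85.6-fold), Nr2f1, a nuclear receptor gene, rose 83.7-fold and Zbtb16, a zinc finger gene of neural progenitors, 50.98-fold. Ptn, which encodes the growth factor pleiotrophin, rose 56.3-fold, to 9643 and 9240. Pdzph1 (91.1-fold), Greb1l (49.4-fold) and Pknox2, a homeobox gene (46.7-fold), complete, with those above, the 12 largest rises of genes measured above background on all 4 arrays. The fold of Dmbx1 (226-fold), above background on 1 EpiSC array, was larger than those of 10 of them. The bounds were highest, after Hes3, for Cbln1, the cerebellin 1 gene (at least 82.6-fold), Lhx5, the zinc finger gene Zfp503 (at least 68.7-fold), Rfx4, a factor gene of dorsal brain (at least 36.4-fold), and Lmx1a.

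At the other end stood epithelial, secreted and immune genes beside those of Nodal. Psors1c2 went from 7546 and 7768 to 97.2 and 125 (69.4-fold). Trim67 fell 52.9-fold (log2 change -5.73, and -6.43 for the mean of its probes), Pla2g10, a secreted phospholipase gene, 43.6-fold, Ly6c1, a GPI-anchored surface protein gene, 38.96-fold, Shisa3 34.1-fold and Sfn, the 14-3-3 sigma gene of epithelia, 31.7-fold. The greatest bounds belonged to Slpi, whose product inhibits secreted proteases (at least 131-fold; EpiSC 1191 and 1240.2), Mab21l4 (at least 57.2-fold), Aadac (at least 51.3-fold), the glutamate receptor gene Grm6 (at least 48.3-fold), Gbp4, and Jaml, a junctional adhesion gene (at least 33.1-fold). These 6 genes were well above background on both EpiSC arrays and on neither NPC2 array. In all, 374 genes were measurable on both NPC2 arrays and neither EpiSC array (330 of them called higher), and 251 the other way (233 called lower). The direction of these calls follows from how the genes were selected.

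Folds of dim genes depend on the background. With another background correction (normexp with an offset of 50) the folds of 93 of the 209 genes named by rule shrank by more than 1.5 times, among them Irx1 from a log2 change of 8.84 to 6.91 and Tdgf1 from -7.07 to -5.59, and 1601 instead of 2942 genes changed at least 2-fold. Over quartiles of mean level, the share changed at least 2-fold and higher was 18.9% in the dimmest quartile of genes and 1.41% in the brightest, and the share lower was 15.9% and 5.23%.

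Markers of other cell types that the cultures could hold were read on the same scale. A sum below adds the levels of different genes, so the brightest probes weigh most in it. Sums of different lists cannot be set side by side, and a sum does not measure a share of cells. Fibroblast and feeder markers summed to 5082 and 5307 in EpiSC and to 9648 and 9750.0 in NPC2, with 8 of 15 tested members higher and 4 lower. Fbln2, a matrix gene, rose 13.3-fold, Prrx1, a mesenchymal homeobox gene, at least 4.99-fold (fitted log2 change 4.06, and 3.35 for the mean of its probes) and Mmp2 3.06-fold, while S100a4 fell 9.32-fold, Twist2 2.81-fold and Col5a1 1.38-fold. The call of Dcn, a small matrix proteoglycan gene, was lower (log2 change -0.56 ± 0.18) and was lost without either EpiSC array or NPC2 B (without NPC2 B -0.35), and Lum, Fap and Lox were not above background. Extraembryonic markers summed to 119560 and 125910 in EpiSC and 86313 and 83600 in NPC2, and 10 of 12 fell, Plac1 at least 4.96-fold and Bmp8b 7.09-fold among them. Fgfr2 rose, and Elf5, Cdx2 and Tpbpa were not above background. Blood and endothelial markers summed to 5401.5 to 5472 and to 4722.5 to 5199, with 6 of 10 lower and 0 higher, led by Runx1 (4.12-fold), Tal1 (1.72-fold), Hbb-bh1 (1.56-fold) and Cd34 (1.5-fold). The other Runx1 probe gave a log2 change of -3.39 against -2.04, and both averaged gave -2.71. Germ cell markers summed to 1507 and 1581 in EpiSC and 1552 and 1457 in NPC2, with 3 of 6 lower (Prdm1 3.81-fold) and Kit higher (2.15-fold), and Ddx4, Dazl and Dppa3 were not above background. The calls of the remaining germ cell members, Nanos3 (-0.41) and Dnd1 (-0.39), ended in the value table (adjusted p = 0.0888 and 0.153), and that of Dnd1 also without any 1 array. The part of such cells in the changes above was not tested.

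Reference genes set the scale of what a small call means. Of 13 housekeeping genes 8 were lower and 1 higher, none by 2-fold (median -0.22, and 0.0072 in the value table). Hprt fell 1.89-fold, Tfrc 1.73-fold and Ywhaz 1.46-fold. Gapdh stood at 267700 and 272860 in EpiSC and 261660 and 256850 in NPC2 and did not pass (adjusted p = 0.382); its change of -0.06 turned to 0.050 with quantile normalization, 0.065 with normexp and 0.16 in the value table. The rise of Pgk1 (0.17) was lost with median scaling (adjusted p = 0.193), without EpiSC A (0.107), EpiSC B (0.111) or NPC2 A (0.124), without a filter on dim probes (0.0584) and with the replicate block (0.0519).

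Noncoding and unnamed probes changed as well. Of 258 tested long noncoding RNA genes 91 were higher and 52 lower, 40 and 20 of them at least 2-fold. Over all genes tested 28.3% were higher and 40.7% lower, and 9.69% and 10.2% at least 2-fold. Of 7495 probes that the array names only by a genomic interval 1647 were higher and 1345 lower, 594 and 476 at least 2-fold. Of 19464 probes of named genes 5076 were higher and 7278 lower, 1851 and 1880 at least 2-fold. Interval probes were thus called less often than those of named genes. Where a gene had several measurable probes, 102 of 3902 genes had probes called in opposite directions, and 3 (Kazn, Sim2 and Trim9) at 2-fold or more each way; these were chosen by that rule after their values were seen.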

How the data were processed

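Cy3-labelled RNA of 6 cultures was hybridised to 1-colour Agilent mouse arrays on 1 slide. The deposited scanner files hold intensity values that Feature Extraction 10.10.1.1 had background-corrected, per the file headers. The authors' deposited value table equals these intensities times a constant per array. Depth does not apply to arrays; their number limits the precision. The log2 of the processed intensity minus the 75th percentile of its array was used. Control spots and outlier probes were left out. A gene was represented by its brightest probe among probes that the scanner software called well above background on both cultures of any group. Of 55646 probes 26744 were named through RefSeq accessions (20274 genes). NPC2 was compared with EpiSC in 1 fit of all 6 arrays (R 4.3.3, limma 3.58.1, lmFit and eBayes), tested on simulated data, with Benjamini-Hochberg adjustment and a threshold of 0.05. Named genes were the largest changes, the largest of each list and a set of standard markers. Most others are said to be named after their values were seen. H2-K1, B2m, Id2, Smarca4 and Cdh11 were also named outside these rules, with their values known. The members and lists were chosen with earlier results of these data known. Alternatives covered scaling, background, filters, probes, the arrays fitted, a replicate block and leaving out each array. Promoters are from RefSeq on GRCm38.p6. Some genes of the lists are counted but not reported here by name.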

Additional observations from a re-analysis of the deposited data

Results flagged for a closer look

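NPC1, whose levels are no side of the comparison of NPC2 with EpiSC though its arrays enter the filter and the spread, held 35 genes that were well above background on both of its arrays and on no array of the other groups. Tnf and Osm, cytokine genes, Cxcl5, a chemokine gene, Zscan4c and the homeobox gene Barx1 were among them. So were the olfactory receptor genes Olfr1184, Olfr124 and Olfr170, and Klk1b26 and Scgb1a1. These names are a selection from the 35, out of 14773 genes tested, and their levels are not given here. The count is over 2 arrays, and it was not tested.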

How the results depend on the processing

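Over all genes, the count of 10195 was 10392 with median scaling, 9842 with quantile normalization, 10024 with normexp, 10057 in the authors' value table and 9494 without a filter on dim probes, and it ranged from 8563 to 8817 without 1 array. The value table gave 3899 lower genes in place of 6013. Normexp gave 1601 genes changed at least 2-fold (793 higher, 808 lower). Over 33536 single probes, a larger set than the genes, 18286 were called (8005 higher, 10281 lower), 5679 of them at least 2-fold (2941 and 2738). Gapdh, not called, changed sign to 0.050 with quantile normalization, 0.065 with normexp and 0.163 in the value table, and Actb to 0.023 in the value table; the cause was not tested. With the replicate letter as a replicate block 9873 genes were called, 9679 of them shared with the fit without it. The letters did not pair the cultures: deviations of NPC2 and EpiSC cultures of 1 letter correlated at 0.0059. With 2 arrays per group, dim genes have only bounds.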

Other observations

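Gene families chosen after their values were seen were counted whole; the lists already hold some of their members. Of 16 tested beta protocadherin genes, which encode neural adhesion molecules, 14 were higher, all at least 2-fold in fitted values, and 0 lower. Several of the 14 were well above background on neither EpiSC array and passed the filter only through other groups. The direction of those genes follows from that choice. Among them, the bound of Pcdhb19 was 1.38-fold. All 6 tested Pax genes, each also in a list, were higher by at least 2-fold in fitted values, though the bound of Pax5 was 1.48-fold. Pax5, Pax6 and Pax7 were well above background on neither EpiSC array, and Pax3 and Pax8 on only 1. In this and the other families, genes that passed the filter through a single group were selected as brighter there. Their direction follows from that choice too. All 6 Iroquois genes, 4 of them in a list, were higher, 5 of them at least 2-fold in fitted values. Of 8 guanylate-binding protein genes 6 were lower, all at least 2-fold, and of 11 annexin genes, which encode calcium-dependent membrane-binding proteins, 10 were lower. Of 30 collagen genes 17 were higher and 3 lower. Over all genes tested 28.3% were higher and 40.7% lower, and 9.69% and 10.2% at least 2-fold. The family counts are descriptions and support nothing further. Members of the protocadherin and guanylate-binding families are near-identical in places, and whether their probes share signal was not tested.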
